A study of Mus musculus with 6 samples.

Results

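The genes described are 10 of the 49523 gene symbols in the count table, taken by symbol: the 4 members of the FOS subfamily of AP-1 (Fos, Fosb, Fosl1 and Fosl2), the 3 members of the JUN subfamily (Jun, Junb and Jund), and the immediate early genes Egr1, Ier2 and Ier3. All 10 passed the filter on low counts. They were measured by RNA sequencing in EO771 cells, a mouse mammary carcinoma line, as 3 libraries labelled cancer stem cells (CSC) and 3 labelled non-CSC. Both groups come from the same line, and the labels name no treatment, genotype or time for either. The sources used here do not give how the CSC were obtained or whether replicates were separate cultures. The spread that the p-values rest on may therefore be technical. The design text names the comparison of CSC with non-CSC, and the series title concerns Sema3c and the survival of breast cancer stem cells.

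AP-1 is a family of leucine zipper transcription factors that bind DNA as pairs. FOS proteins need a JUN partner, while JUN proteins can also pair with each other, so the mix of subunits in a cell sets which pairs can form. Many of these genes are immediate early genes: growth factors and stress switch them on within minutes through MAP kinases and factors such as SRF and CREB, with no new protein needed, and their RNAs are short-lived. Egr1 encodes a zinc finger factor induced in the same way. Ier2 encodes a small nuclear protein, and Ier3 a stress-induced membrane protein that modulates cell survival and is not itself a DNA-binding factor. In mammary tumour cells AP-1, FRA1 (the product of Fosl1) in particular, is known for its part in invasion.

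CSC libraries held 27099879 to 28205651 counts and non-CSC libraries 32204112 to 35971131. Levels are given as CPM, a gene's counts over the library's total on a scale common to all libraries, adjusted by edgeR's TMM factors. As markers of the labelled line, 7 epithelial markers summed to 2779 to 2939 CPM in CSC and 2601 to 2737 CPM in non-CSC, nearly all of it the keratin genes Krt8, Krt18 and Krt19. Other markers of the list went the other way or were near 0: Epcam averaged 10.3 CPM in CSC and 21.3 CPM in non-CSC and Cldn4 1.34 CPM in CSC and 5.66 CPM in non-CSC, while Cdh1, which encodes E-cadherin, and Cldn7 averaged under 1 CPM in both groups. Summed markers of other cells were higher in CSC. The 9 leukocyte markers summed to 35.6 to 36.7 CPM in CSC and 27.4 to 29.4 CPM in non-CSC, with Adgre1, Tyrobp and Cd3e at 0 in every library. Of these, Itgam averaged 10.2 CPM in CSC and 0.741 CPM in non-CSC and Csf1r 8.06 CPM in CSC and 1.85 CPM in non-CSC, while Cd68 was lower in CSC, at 17.8 CPM in CSC and 25.4 CPM in non-CSC. The 7 fibroblast markers summed to 1196 to 1243 CPM in CSC and 555 to 589 CPM in non-CSC, nearly all of it Dcn (a mean of 1212 CPM in CSC and 567 CPM in non-CSC), with Lum and Thy1 at 0. The 5 endothelial markers summed to 5.83 to 6.07 CPM in CSC and 1.38 to 1.75 CPM in non-CSC, most of it Vwf (5.46 CPM in CSC and 0.899 CPM in non-CSC), while Pecam1 averaged 0.331 CPM in CSC and 0.586 CPM in non-CSC. Summed levels of the 5 erythroid markers were 1.92 to 2.07 CPM in CSC and 1.05 to 1.40 CPM in non-CSC. The part of these differences in the results below was not tested.

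Of the 10 genes, 6 were lower in CSC, 2 were higher and 2 did not pass the test (edgeR quasi-likelihood test, Benjamini-Hochberg adjusted p under 0.05 over 17630 genes). Fosl1, Egr1, Ier2 and Jun had the largest falls, Fos and Fosb fell slightly, Ier3 and Fosl2 rose, and Junb and Jund stayed short of the threshold. This comparison called 66.5% of all genes tested, 33.1% as lower and 33.4% as higher, so that 8 called genes of 10 is a share not far above the background. A change of at least 2-fold was called for 3 of the 10, Fosl1 and Egr1 as lower and Ier3 as higher, and for 12.1% of all genes, 4.09% as lower and 8.01% as higher. The median log2 fold change of the 10 genes was -0.36, against 0.01 for all genes tested. CPM values of the groups did not overlap for 7 of the 10, and for 69.3% of all genes. In RNA from bulk cultures, fewer cells expressing a gene and less RNA per cell cannot be told apart.

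**Figure D1:**
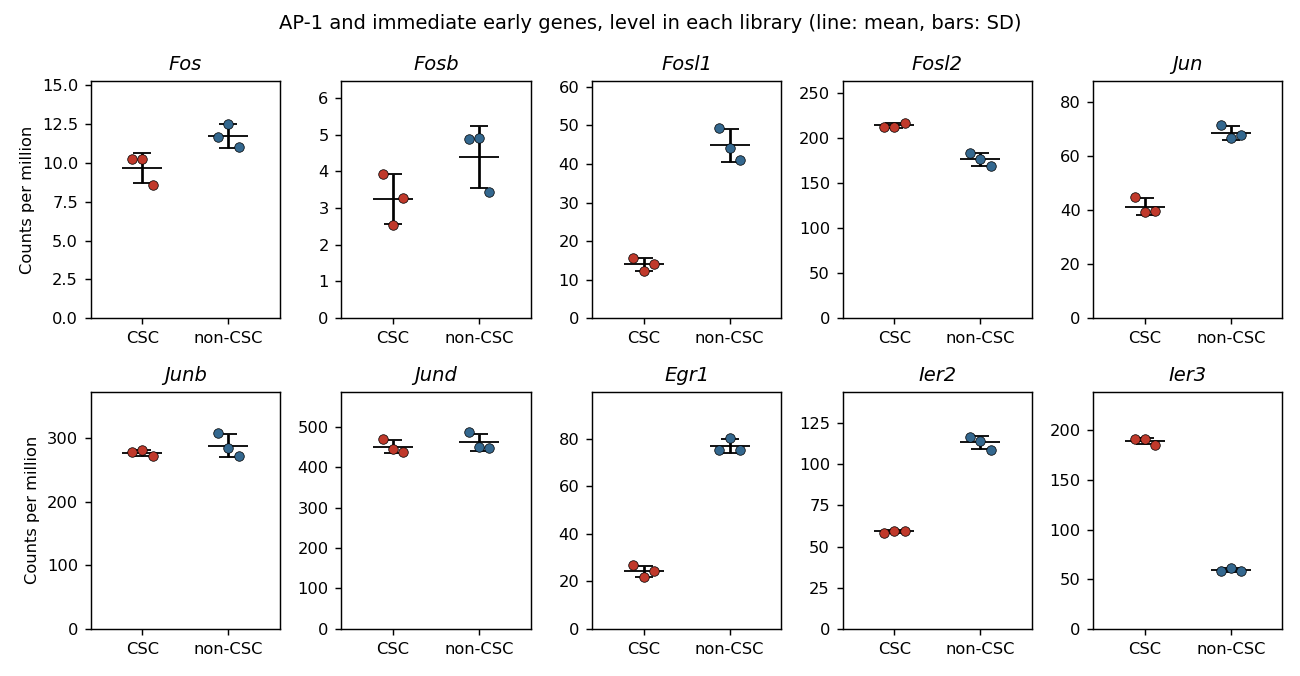
Level of each of the 10 genes (CPM, linear axis from 0) in 3 CSC and 3 non-CSC libraries. Points are libraries, the line is the group mean and the bars are the SD (n = 3 each); Fosl1, Egr1, Ier2 and Jun are lower in every CSC library than in any non-CSC library, Ier3 and Fosl2 are higher, and the groups overlap for Fosb, Junb and Jund.

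Among the FOS subfamily, Fosl1 changed most. It lies on chromosome 19 at 5447698 to 5455938 (GRCm38.p6, plus strand), is protein-coding, and encodes FRA1. Its level was 15.6, 12.3 and 14.1 CPM in the CSC libraries, against 49.4, 44.1 and 41.1 CPM in the non-CSC libraries, from 349 to 431 counts in CSC and 1451 to 1550 counts in non-CSC. Every CSC library lay below every non-CSC library, by a wide margin. The log2 fold change was -1.68 ± 0.083 (SE; edgeR adjusted p = 1.46e-10), larger in size than that of 94.99% of all genes tested. Exons of Ccdc85b, a gene on the other strand, cover 57.2% of the exon bases of Fosl1 in GENCODE M21. Ccdc85b averaged 34.1 CPM in CSC and 64.3 CPM in non-CSC, a log2 fold change of -0.91 ± 0.049 (edgeR adjusted p = 1.12e-13). Whether counting used strand is not given here, so reads from the shared bases cannot be told apart and the level of Fosl1 is uncertain to that extent.

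Fosl2, which encodes the related FRA2, moved the other way. The gene lies on chromosome 5 at 32136472 to 32157840 (plus strand). Its level was 213, 212 and 217 CPM in CSC, against 184, 177 and 169 CPM in non-CSC. The groups did not overlap, though the difference was small, with a log2 fold change of 0.28 ± 0.037 (edgeR adjusted p = 5.99e-07).

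Fos, the founding member of the family, lies on chromosome 12 at 85473890 to 85477274 (plus strand) and was expressed at a low level. Its level was 10.2, 10.3 and 8.58 CPM in CSC, against 11.7, 12.5 and 11.0 CPM in non-CSC. The highest CSC library was just below the lowest non-CSC library, and the log2 fold change was -0.28 ± 0.080 (edgeR adjusted p = 0.00434). Fosb lies on chromosome 7 at 19302696 to 19310118 (minus strand) and had the fewest reads of the 10 genes, 72 to 108 counts in CSC and 121 to 170 counts in non-CSC. Its level was 3.92, 2.54 and 3.27 CPM in CSC, against 4.88, 4.90 and 3.42 CPM in non-CSC. One CSC library lay above the lowest non-CSC library. The log2 fold change of -0.44 ± 0.16 passed the test (edgeR adjusted p = 0.0278), a call that was lost with upper-quartile scaling (adjusted p = 0.0522). It was also lost without CSC replicate 2 (adjusted p = 0.112), CSC replicate 3 (0.0655), non-CSC replicate 1 (0.0857) or non-CSC replicate 2 (0.0944), with adjusted p from 0.000384 to 0.112 over the 15 alternatives.

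In the JUN subfamily a single member passed the test. Jun, which encodes c-Jun, lies on chromosome 4 at 95049036 to 95052222 (minus strand). Its level was 45.0, 39.2 and 39.8 CPM in CSC, against 71.6, 66.7 and 67.9 CPM in non-CSC. All CSC libraries were lower than all non-CSC libraries, with a log2 fold change of -0.73 ± 0.051 (edgeR adjusted p = 1.67e-11). The antisense gene Junos covers 7.28% of the exon bases of Jun and averaged 1.06 CPM in CSC and 0.658 CPM in non-CSC, from 19 to 35 counts a library.

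Junb and Jund, the abundant JUN genes, gave nearly equal values in both groups. JunB and JunD are often described as weaker activators than c-Jun. Junb lies on chromosome 8 at 84976909 to 84978748 (minus strand). Its level was 278, 281 and 272 CPM in CSC, against 309, 284 and 272 CPM in non-CSC. The log2 fold change was -0.06, with a 95% interval of -0.14 to 0.03 (edgeR adjusted p = 0.231). Without non-CSC replicate 3 it was -0.10 and passed the test (adjusted p = 0.0346; 0.0346 to 0.968 over the 15 alternatives). Exons of Prdx2, on the other strand, cover 7.52% of its exon bases, none of them in its longest transcript, and Prdx2 averaged 249 CPM in CSC and 241 CPM in non-CSC. Jund lies on the same chromosome at 70697739 to 70700616 (plus strand). Its level was 469.8, 445 and 437 CPM in CSC, against 486, 449 and 448 CPM in non-CSC, and the groups overlapped. The log2 fold change was -0.03, with a 95% interval of -0.11 to 0.05 (edgeR adjusted p = 0.477). Both values turned positive under upper-quartile scaling and under scaling by library size alone. The antisense gene Gm11175 covers 52.6% of the exon bases of Jund, so its level is uncertain in the same way as that of Fosl1.

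Of the immediate early genes outside AP-1, Egr1 and Ier2 fell and Ier3 rose. Egr1 lies on chromosome 18 at 34861207 to 34864956 (plus strand). Its level was 26.7, 21.9 and 24.3 CPM in CSC, against 75.5, 80.3 and 75.4 CPM in non-CSC. The groups lay far apart, with a log2 fold change of -1.67 ± 0.057 (edgeR adjusted p = 1.31e-16). Ier2 lies on chromosome 8 at 84661331 to 84662852 (minus strand), close to Junb. Its level was 58.4, 59.5 and 59.6 CPM in CSC, against 116, 114 and 109 CPM in non-CSC. The CSC libraries were almost equal and all lower, with a log2 fold change of -0.94 ± 0.040 (edgeR adjusted p = 1.66e-15).

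Ier3, also called IEX-1, lies on chromosome 17 at 35821713 to 35822911 (plus strand). Its level was 191, 191 and 186 CPM in CSC, against 58.7, 61.3 and 58.1 CPM in non-CSC. It was the one gene of the 10 with a rise of at least 2-fold, at 3.19-fold, with a log2 fold change of 1.67 ± 0.038 (edgeR adjusted p = 1.13e-20). No exon of another annotated gene overlapped Fos, Fosb, Fosl2, Egr1, Ier2 or Ier3, and none of the 10 genes shared a 50-base word of its longest transcript with another gene.

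To set the subunits side by side, CPM were divided by the length of the longest GENCODE transcript, which gives CPM per kilobase. Within the FOS subfamily, Fosl2 held the largest share of this per-length level in CSC. Its share was 69.5%, 72.8% and 72.7% in the CSC libraries, against 45.7%, 46.7% and 47.9% in the non-CSC libraries. The share of Fosl1 was 17.9%, 14.8% and 16.5% in CSC, against 43.2%, 40.8% and 40.8% in non-CSC. The pool in CSC was thus mostly Fosl2, and that in non-CSC about evenly Fosl2 and Fosl1. For both genes the shares of the groups did not overlap, and the exact two-sided permutation p was 0.1, the smallest that 3 against 3 libraries allow (adjusted p = 0.2 over 10 sums and shares). Fos made up 10.1% ± 1.04 in CSC and 9.64% ± 0.624 in non-CSC (SD, n = 3 each), and Fosb 1.87% ± 0.354 in CSC and 2.00% ± 0.292 in non-CSC (exact permutation p = 0.6 for each). If the bases that Ccdc85b overlaps are left out of the length, a setting added after the overlap was seen, Fosl1 held 34.3% in CSC and 65.4% in non-CSC, so which gene led in non-CSC depends on how those bases were counted.

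The JUN pool kept nearly the same make-up in both groups. Jund held 61.9% ± 0.687 in CSC and 60.5% ± 0.474 in non-CSC, and Junb 35.1% ± 0.848 in CSC and 34.8% ± 0.580 in non-CSC (SD, n = 3 each). Jun was the smallest part, 3.14%, 2.83% and 2.94% in the CSC libraries, against 4.63%, 4.68% and 4.84% in the non-CSC libraries. The exact permutation p was 0.1 for Jun and for Jund and 0.5 for Junb. With overlapped bases left out of the length, Jund held 77.3% in CSC and 76.2% in non-CSC, Junb 20.8% in both and Jun 1.90% in CSC and 3.04% in non-CSC, so the levels of these shares depend on the length taken. Summed over the subfamily, FOS genes reached 45.7 ± 1.08 CPM per kilobase in CSC and 57.8 ± 3.69 in non-CSC, and JUN genes 436 ± 12.2 in CSC and 457 ± 23.8 in non-CSC (SD, n = 3 each; exact permutation p = 0.1 and p = 0.3). Transcripts of the JUN subfamily were thus several times as abundant per length as those of the FOS subfamily in both groups. The difference in the FOS sum depended on the length taken: with no length correction the summed CPM were 241 in CSC and 238 in non-CSC, and with overlapped bases left out of the length the sums were 58.2 CPM per kilobase in CSC and 97.7 in non-CSC. For the JUN sum the last setting gave 737 CPM per kilobase in CSC and 766 in non-CSC.

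**Figure D2:**
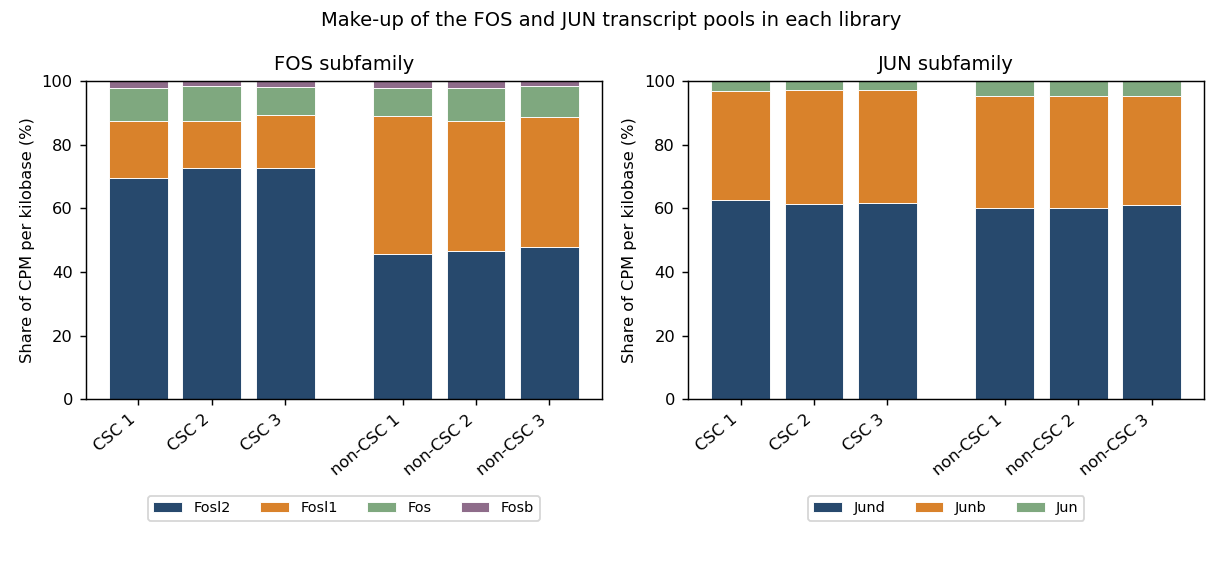
Share of each subunit (%) in the summed CPM per kilobase of the FOS (left) and JUN (right) subfamilies, as stacked bars for 3 CSC and 3 non-CSC libraries. Fosl2 takes 69.5% to 72.8% of the FOS bar in CSC and 45.7% to 47.9% in non-CSC, while Jund leads the JUN bar in every library.

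Each gene was also set beside the 30 tested genes around it on its chromosome. The neighbours of Fos had a median log2 fold change of -0.49, below the -0.28 of Fos, so Fos did not fall more than the stretch it lies in. Those of Fosl1 had a median of -0.42, against -1.68 for Fosl1. Ier3 rose in a stretch whose median was -0.32, and Jun fell in one whose median was 0.14. For Fosb, Egr1, Ier2, Fosl2, Junb and Jund the medians lay between -0.15 and 0.09. The part of these regional shifts in the changes of the genes was not tested.

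**Figure D3:**
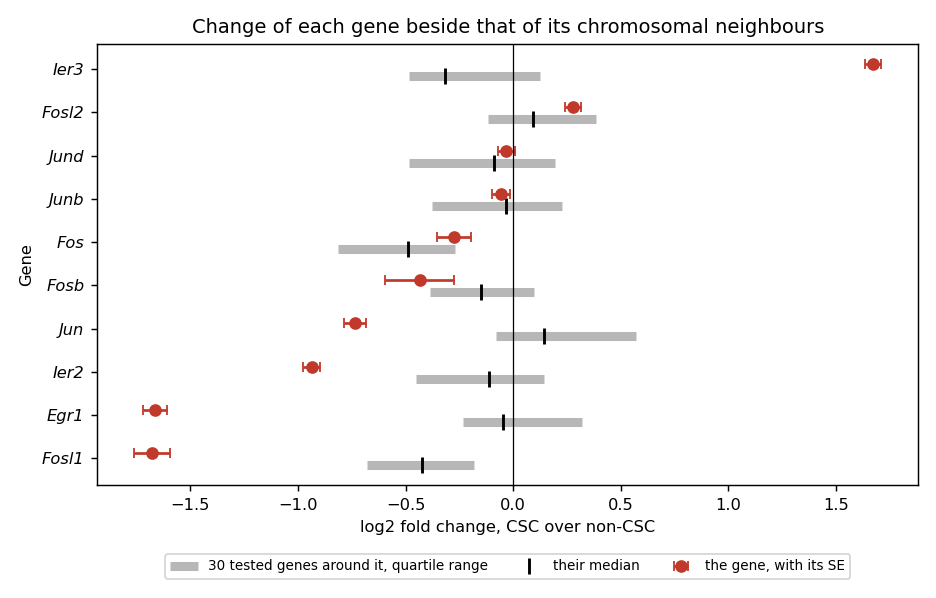
Log2 fold change (CSC over non-CSC) of each gene with its SE (red), beside the median (black tick) and quartile range (grey) of the 30 tested genes around it. Fosl1, Egr1, Ier2, Jun, Fosb and Ier3 lie outside the quartile range of their neighbours, while Fos (-0.28) lies above the median of its own (-0.49).

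The promoters of Fos and Jun, which fell, and of Fosl2 and Ier3, which rose, are shown as the stretches next to the gene start. They are the 250 bases before the RefSeq gene start (GRCm38.p6), on the gene's strand, 5′ to 3′. Promoter sequences were matched for Fos, Fosb, Fosl2, Jun, Junb, Jund and Ier3. None was at hand for Fosl1, Egr1 and Ier2, so their promoters were not searched. Capitals mark matches on either strand to the motifs named after the sequences, and where matches overlap the capitals run together.
Fos (chr12:85473640-85473889): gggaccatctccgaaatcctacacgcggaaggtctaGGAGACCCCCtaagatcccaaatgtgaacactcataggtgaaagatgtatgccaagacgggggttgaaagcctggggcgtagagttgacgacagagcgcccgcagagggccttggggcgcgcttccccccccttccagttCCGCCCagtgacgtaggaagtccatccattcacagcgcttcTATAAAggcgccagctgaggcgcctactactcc
Jun (chr4:95052223-95052472): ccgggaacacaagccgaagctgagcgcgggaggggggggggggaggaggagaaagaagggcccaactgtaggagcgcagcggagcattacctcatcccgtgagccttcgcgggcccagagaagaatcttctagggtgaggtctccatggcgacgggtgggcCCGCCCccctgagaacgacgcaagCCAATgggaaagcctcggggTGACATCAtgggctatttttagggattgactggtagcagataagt
Fosl2 (chr5:32136222-32136471): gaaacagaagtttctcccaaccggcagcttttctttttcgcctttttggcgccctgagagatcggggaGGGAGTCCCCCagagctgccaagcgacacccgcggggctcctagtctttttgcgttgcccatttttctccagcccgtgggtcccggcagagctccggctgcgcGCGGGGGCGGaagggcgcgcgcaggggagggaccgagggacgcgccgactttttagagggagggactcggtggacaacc
Ier3 (chr17:35821463-35821712): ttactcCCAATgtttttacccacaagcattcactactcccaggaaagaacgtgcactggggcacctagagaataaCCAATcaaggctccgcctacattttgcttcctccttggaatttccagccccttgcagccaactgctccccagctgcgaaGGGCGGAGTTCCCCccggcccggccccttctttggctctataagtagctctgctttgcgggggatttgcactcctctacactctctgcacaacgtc

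Of the 4 promoters, that of Jun alone matched TGACNTCA, the CRE type motif, as TGACATCA at -45 to -38 from the start; 7.49% of 32817 mouse promoters of the same length hold one. It also held CCAAT at -65 to -61 (33.8% of promoters) and the GC box GGGCGG (32.7%). Fos held the TATA box TATAAA at -33 to -28 (12.4% of promoters), a GC box and an NF-kB motif at -214 to -205 (3.90%). Fosl2 held the EGR motif GCGNGGGCG at -79 to -71 (4.70%), which overlaps its GC box, and 2 overlapping NF-kB motifs between -182 and -172. Fosb, which fell and whose promoter is not shown, also held the EGR motif, at -50 to -42, and an NF-kB motif at -188 to -179. Ier3 held a pair of CCAAT boxes, a GC box and an NF-kB motif at -92 to -83, which overlaps that GC box. No promoter of the 4 held the AP-1 motif TGANTCA (6.75%) or a CArG box, the site of SRF (1.47%), within these bases. Bases further from the start, where other control sites may lie, were not searched. A match is only a match of letters, and binding was not measured. Sites that differ from a motif in any letter were not sought, so a promoter without a match may still hold such a site.

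Transcripts of factors that pair with FOS or JUN, or compete with them, were called in both directions. Of all genes, 33.4% were called higher and 33.1% lower, and the counts below rest on 10 tested genes only. Of 12 listed partners in the leucine zipper family, 10 were tested, of which 3 rose and 5 fell, and the median log2 fold change was -0.04. Jdp2, which encodes a repressor that pairs with c-Jun, averaged 12.5 CPM in CSC and 49.7 CPM in non-CSC, a log2 fold change of -1.98 ± 0.058 (edgeR adjusted p = 1.44e-18). Atf2, whose product pairs with c-Jun at CRE type sites, averaged 79.4 CPM in CSC and 31.8 CPM in non-CSC (1.32 ± 0.050; adjusted p = 1.81e-16). Atf3, a stress-induced partner, fell by 0.87 on the log2 scale.

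Other immediate early genes fell more often than they rose. Of 34 listed, 30 were tested, 18 fell and 8 rose, against 33.1% and 33.4% of all genes, and the median log2 fold change was -0.31. Atf3 and Maff, which both fell, are also on the list of partners, and Trib1 is also on that of co-repressors and turnover factors. The ERK phosphatase gene Dusp6 averaged 124 CPM in CSC and 236 CPM in non-CSC, a log2 fold change of -0.93, and the nuclear phosphatase gene Dusp5 fell by 1.34. Zfp36, which encodes a protein that speeds the decay of AU-rich RNAs, fell by 1.13. The kinase gene Pim1 rose, at 105 CPM in CSC and 54.4 CPM in non-CSC, a log2 fold change of 0.95. The fall among early genes was not uniform: Dusp1, Btg2 and Trib1, named after their values were seen, had log2 fold changes of -0.06, -0.01 and -0.02 and did not pass the test.

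Among the factors and kinases upstream, no change reached 2-fold, and calls in both directions are to be read against the 33.4% of all genes called higher and the 33.1% called lower. Of 9 SRF, ternary complex and CREB factors, 4 rose and 4 fell, and their median log2 fold change was -0.15. Mrtfb, an actin-regulated partner of SRF, rose by 0.52 and Elk3, a ternary complex factor, by 0.34, while Creb1 fell by 0.52 and Mrtfa by 0.37. Of 17 listed MAP kinases and kinases above or below them, 15 were tested, 6 rose and 4 fell, 10 of 15 called against 66.5% of all genes, with a median of 0.04. Map2k5, the kinase of ERK5, rose by 0.75 and the p38 kinase gene Mapk14 by 0.42. Rps6ka4, which encodes the nuclear kinase MSK2, fell by 0.46 and the ERK kinase gene Map2k1 by 0.44. RNA levels do not show kinase activity, which was not measured.

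Of 10 genes for co-repressors and turnover factors of EGR1 or AP-1 proteins, 2 rose and 5 fell, with a median of -0.07; 7 of 10 called is near the 66.5% of all genes. Trib2, which encodes a pseudokinase adaptor of the ubiquitin ligase COP1, averaged 11.8 CPM in CSC and 1.19 CPM in non-CSC, a log2 fold change of 3.30 ± 0.12 (edgeR adjusted p = 1.52e-16). Cop1 itself, whose product marks c-Jun for degradation, fell by 0.28, and Cops5, which encodes the c-Jun binding signalosome subunit JAB1, rose by 0.38. Nab2, a co-repressor of EGR1 that EGR1 is known to induce, averaged 37.3 CPM in CSC and 56.4 CPM in non-CSC, a log2 fold change of -0.60.

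Among known AP-1 target genes, falls of at least 2-fold were frequent. Of 25 listed, 20 were tested, 14 fell and 5 rose, against 33.1% and 33.4% of all genes. The median log2 fold change was -1.21, against 0.01 for all genes tested. Of the 20 tested, 11 fell at least 2-fold, against 4.09% of all genes, and 2 rose at least 2-fold, against 8.01%. The list was chosen with earlier results of these data known, so these shares are a description and not independent evidence. The collagenase gene Mmp13 averaged 4.69 CPM in CSC and 32.7 CPM in non-CSC, a log2 fold change of -2.80 ± 0.075 (edgeR adjusted p = 2.49e-19). Mmp10, which encodes stromelysin 2, averaged 5.997 CPM in CSC and 34.2 CPM in non-CSC, a log2 fold change of -2.51. The growth factor gene Areg fell by 3.06. Not all targets fell, and 2 that rose, Ccnd1 and Ccl2, are named after their values were seen. Ccnd1, which encodes cyclin D1, averaged 1022 CPM in CSC and 477 CPM in non-CSC, a log2 fold change of 1.10 ± 0.034 (edgeR adjusted p = 3.79e-18). Ccl2 averaged 12.3 CPM in CSC and 3.37 CPM in non-CSC, a log2 fold change of 1.87. The part of the AP-1 genes in these differences was not tested.

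Of 12 known EGR1 target genes, 11 were tested, 7 rose and 3 fell, against 33.4% and 33.1% of all genes, and the median log2 fold change was 0.17. Thbs1, which encodes thrombospondin 1, rose by 2.20 and the adhesion gene Icam1 by 0.63. The list shares Cd44 and Tgfb1 with the AP-1 targets and Nab2 with the co-repressors. Targets on both lists are known to answer to many other factors.

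Immediate early genes are known to respond to cell handling, as are heat shock genes. Of 11 heat shock genes, 9 were tested, 6 fell and 2 rose, against 33.1% and 33.4% of all genes, and the median log2 fold change was -0.15. The 2 rises became 1 under 11 of 15 alternatives. Hsp90aa1, the inducible HSP90 gene, fell by 0.60, Hsph1 by 0.46 and the constitutive Hspa8 by 0.20, while the mitochondrial Hspe1 rose by 0.26. Of the list genes given by name as risen or fallen, Hspe1 had the highest edgeR adjusted p, 0.00552. The strongly inducible Hspa1a and Hspa1b averaged under 1 CPM in both groups, from 0 to 3 counts a library. No aligner or counter is given here, so these values may not show the true level of their RNA. Handling of the cultures is not described beyond RNA extraction, and its part in the early gene differences was not tested.

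**Figure D4:**
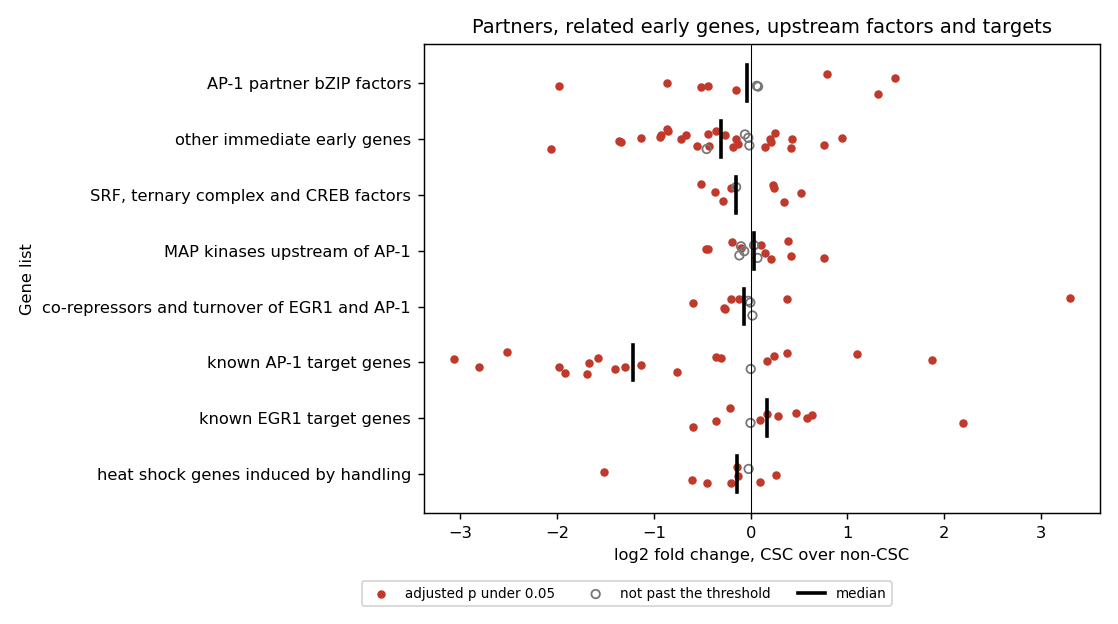
Log2 fold change (CSC over non-CSC) of the tested genes of 8 lists; filled points passed the adjusted p of 0.05, open points did not, and the black bar is the median of the list. The AP-1 targets have the lowest median (-1.21), the EGR1 targets the highest (0.17).

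Genes with the profile nearest to that of Ier3 and of Fosl1 were sought among 10111 others with at least 5 CPM, by the root mean squared difference of centred log2 CPM over the 6 libraries. For Ier3 they were Hrh1 (0.019), which encodes a histamine receptor, Ablim3 (0.023), an actin-binding gene, and Pdzk1 (0.042), a scaffold gene. For Fosl1 they were Dhx34 (0.073), an RNA helicase gene, Igf2bp2 (0.083), which encodes an RNA-binding protein, and Selenow (0.092), a selenoprotein gene. With 2 groups of libraries this measure mostly finds genes with an equal difference between the groups.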

How the data were processed

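Per the labels' protocols, Trizol was used to extract RNA, and NEBNext Ultra II libraries were prepared. The authors deposited raw read counts per gene symbol for 6 libraries, with GRCm38 as the build in the submitters' processing notes. No aligner, counter, annotation or strand setting is given in the sources used here. Totals of 27099879 to 35971131 counts set the precision, and intervals cover counting error and the spread between libraries only. The members and lists were chosen with earlier results of these data known.

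Genes were filtered with filterByExpr (17630 of 49523 remained), scaled by TMM (factors 0.974 to 1.03) and tested with edgeR 4.0.16 (R 4.3.3; quasi-likelihood, robust, no covariate), with Benjamini-Hochberg adjustment over all genes and a threshold of 0.05. The SE is the size of the log2 fold change over the square root of F. Replicates of a group differed beyond sampling noise (chi-square per degree of freedom 3.21 to 7.30), so all were kept. Positions and promoters came from RefSeq GRCm38.p6, transcript lengths and overlaps from GENCODE M21. On simulated counts of this comparison (17337 genes, 50 changed at each size) the test recovered 92% of 2-fold and 56% of 1.25-fold changes. Only 200 genes were changed there, against 66.5% of genes called in the data, so recovery in the data may differ. From each list up to 4 genes were named, those with the largest changes among called genes that averaged 5 CPM or more; some genes that this rule takes are left out of the text, exceptions are marked, and genes overlapping a member are named for that reason. Alternatives were scaling by RLE, upper quartile or library size, a filter of 1 count in all or of 50 counts on average, DESeq2 1.42.0, limma-voom (limma 3.58.1), the robust setting off, a replicate block and leaving out each library, and for shares and sums the length used.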

Additional observations from a re-analysis of the deposited data

How the results depend on the processing

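Over 15 alternatives of scaling, filter, test and libraries, 2 members were called higher in each and 5 to 7 lower. Fos, Fosl1, Fosl2, Jun, Egr1, Ier2 and Ier3 kept direction and call under all 15, and Fosb lost its call under 5. The values of Junb and Jund, not called, turned to 0.0021 and 0.026 with upper-quartile scaling and 0.0094 and 0.033 with library size only; the cause was not tested. Without length correction the FOS sum differed by 3.51 CPM (CSC minus non-CSC), against -12.1 CPM per kilobase with it, and the share of Fos by -0.92 percentage points, against 0.42. With overlapped bases left out of the length, the shares of Fosb and Junb differed by 0.28 and -0.012 points, against -0.13 and 0.29. When each library was left out in turn, these differences ran from -0.0053 to 0.999 points for Fos, -0.30 to 0.051 for Fosb and -0.051 to 0.76 for Junb. None of these shares passed a test, and none could at 0.05. With 3 against 3 libraries the exact permutation p cannot go below 0.1. Without a filter 7 MAP kinases were called lower, against 4, and 1 heat shock gene was called higher under 11 of the alternatives, against 2. Counts of called marker genes moved by over 1.5 times for the erythroid (higher, to 0), endothelial (lower, to 0) and leukocyte (lower, to 2) lists.

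The replicate numbers shared by the groups gave no sign of pairing. Deviations of same-numbered libraries correlated at -0.075 to 0.010 across 11137 genes, which are not independent replicates. Those of differently numbered libraries correlated at -0.072 to 0.094. With 3 libraries in each group, this cannot show that same-numbered libraries were prepared apart. With the replicate block 11680 genes were called, against 11732, and 2 members were called higher and 6 lower, as without it. The depth limits Fosb most, with 72 to 170 counts a library.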
